A study of Mus musculus with 8 samples.

Results

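The genes described here are the 10 core genes of the circadian clock, taken by name from the deposited table of 30445 genes: Clock and Arntl (also called Bmal1), the Period genes Per1, Per2 and Per3, the cryptochromes Cry1 and Cry2, the nuclear receptors Nr1d1 and Nr1d2, and Dbp. All 10 were in the table and all 10 passed the low-count filter. RNA of mouse heart was sequenced 8 weeks after transverse aortic constriction, an operation that narrows the aorta and raises the pressure load on the left ventricle. There were 4 libraries of wildtype C57 mice and 4 of C57 mice whose label reads Mertk knockdown, and every heart had been operated. The labels do not give the way or the cells in which Mertk was lowered, the age of the mice, or the hour at which hearts were taken. They also leave unsaid if replicates came from different animals, so p-values rest on a spread between libraries that may be technical. In bulk RNA, fewer cells of a type and less RNA per cell cannot be told apart.

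The circadian clock is a feedback loop of transcription that runs in nearly every cell, the heart muscle cell included, with a period of about a day. CLOCK and BMAL1 bind as a pair to E-boxes and switch on the Period and Cryptochrome genes, the REV-ERB genes Nr1d1 and Nr1d2, and Dbp. PER and CRY proteins return to the nucleus and restrain CLOCK and BMAL1, while the REV-ERB proteins repress Arntl through the elements known as ROREs. The transcripts therefore peak in succession through the day, Nr1d1 ahead of Dbp, Dbp ahead of Per2, and Cry1 later, with Arntl low when Dbp is high. In the heart the clock is known to time metabolism and excitability.

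Promoters are shown for Per1, whose groups did not overlap, for Cry1 and Nr1d1, which divided the labelled knockdown libraries, and for Per3, which held a motif found in few promoters. Promoter windows were found in the RefSeq tables (build GRCm38.p6) for 9 of the 10 members (all but Per2), in 13 windows, since some genes have several starts. Of several windows of a gene, the first to hold a motif named below is shown, so the windows shown were picked for holding one. The 250 bases before the start were searched on both strands for the E-box CACGTG, its variant CACGTT (the E-prime box), the D-box TTATGTAA, to which DBP binds, and the RORE cores TAGGTCA and TGGGTCA. Matches did not overlap in the windows shown, which are written 5′ to 3′ on the strand of the gene with matches in capitals (a CACGTT on the opposite strand reads AACGTG).
Per1 (chr11:69098699-69098948, plus strand): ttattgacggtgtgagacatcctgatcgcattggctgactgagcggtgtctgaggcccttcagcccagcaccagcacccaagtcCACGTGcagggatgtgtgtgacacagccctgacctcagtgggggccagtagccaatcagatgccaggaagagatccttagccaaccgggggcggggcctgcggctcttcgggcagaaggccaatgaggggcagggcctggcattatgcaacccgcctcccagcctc
Per3 (chr4:151044666-151044915, minus strand): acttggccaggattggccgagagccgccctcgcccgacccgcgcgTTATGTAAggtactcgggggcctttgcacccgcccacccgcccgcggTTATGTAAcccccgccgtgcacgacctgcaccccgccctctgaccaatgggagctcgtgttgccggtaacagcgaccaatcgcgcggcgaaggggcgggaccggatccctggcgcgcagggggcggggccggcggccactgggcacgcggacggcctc
Cry1 (chr10:85185055-85185304, minus strand): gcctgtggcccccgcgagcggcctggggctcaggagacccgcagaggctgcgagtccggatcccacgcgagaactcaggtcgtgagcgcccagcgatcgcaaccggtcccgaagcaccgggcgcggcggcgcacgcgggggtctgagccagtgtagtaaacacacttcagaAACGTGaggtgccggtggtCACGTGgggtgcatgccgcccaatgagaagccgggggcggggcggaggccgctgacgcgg
Nr1d1 (chr11:98775378-98775627, minus strand): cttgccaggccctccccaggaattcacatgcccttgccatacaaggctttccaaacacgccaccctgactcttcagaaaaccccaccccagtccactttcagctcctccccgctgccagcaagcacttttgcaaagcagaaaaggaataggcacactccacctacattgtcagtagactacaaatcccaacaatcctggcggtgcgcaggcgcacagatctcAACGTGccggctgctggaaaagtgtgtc

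The Per1 window, before a RefSeq start that lies inside the gene's deposited span, holds an E-box that begins 166 bases before that start, and Cry1 one that begins 60 bases before it. An E-prime box lies 79 bases before the start of Cry1, 28 bases before that of Nr1d1 and 166 bases before that of Cry2, whose window is not shown. In Per3 the D-box occurs at 205 and at 158 bases before the start. Of all 32851 windows in the tables, 6.02% held the E-box, 3.85% the E-prime box and 0.819% the D-box, while 2.23% held TAGGTCA and 3.24% TGGGTCA. The RORE cores were in none of the members' windows, and in those of Clock, Arntl, Nr1d2 and Dbp none of the searched letters occurred. A match is a run of letters, not a measured site.

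Total counts ran from 59287621 to 71571173 per library. Mertk itself, the gene named in the labels, was at 10.4 to 12.3 CPM (counts corrected for library size with TMM factors) in wildtype and 10.6 to 12.8 CPM in the labelled knockdown libraries (log2 fold change 0.10, SE 0.11, adjusted p by edgeR = 0.766). It was thus not lower where the label says knockdown, and all directions are those of the labels. All 8 heart muscle markers were abundant in every library. Hepatocyte markers (12 of 12 measured) summed to 230.3 to 282.2 CPM in the labelled knockdown libraries and in wildtype to 279.7 CPM in replicate 1 but 51.57 to 56.66 CPM in the others; Fga, Alb, Fgb, Apoc3 and Serpina1a were at 0 in wildtype replicate 4. Atrial markers (6 of 6) were high in wildtype replicates 3 and 4 and labelled knockdown replicate 4 (404.7, 265 and 723.1 CPM) and at 18.11 to 39.6 CPM in the other 5 libraries. Libraries of a group were not equally alike. The chi-square per degree of freedom between their counts was lowest for wildtype replicates 1 and 3 (47.82) and, in the labelled group, for replicates 3 and 4 (37.89) and replicates 1 and 2 (45.93), against 68.46 to 198.7 in the remaining pairs. The clock genes described next set these same libraries together.

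None of the 10 core clock genes differed between the groups by the edgeR quasi-likelihood test at an adjusted p under 0.05, where 0.647% of all 17787 tested genes did (0.275% higher and 0.371% lower in the labelled group). At an unadjusted p under 0.05 there were 3, Per1 and Per3 lower and Nr1d1 higher. All tested genes gave 12.4%, of them 6.32% lower. DESeq2 called 1, Per1, where it called 3.73% of 16206 genes with an adjusted p. By limma on FPKM 0 were called (0.392% of all genes with a pseudocount of 1, 0.404% with 0.1). The log2 fold change, labelled knockdown minus wildtype, was above 0 for 5 members and below 0 for 5, with a median of −0.07 (−0.001 over all tested genes). Levels were not steady within the groups. Labelled knockdown replicates 3 and 4 stood apart from replicates 1 and 2 in Nr1d1, Per2, Cry1, Arntl and Dbp, and less widely in Per3. Wildtype replicates 2 and 4 stood apart from replicates 1 and 3 in Arntl and Dbp.

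**Figure D1:**
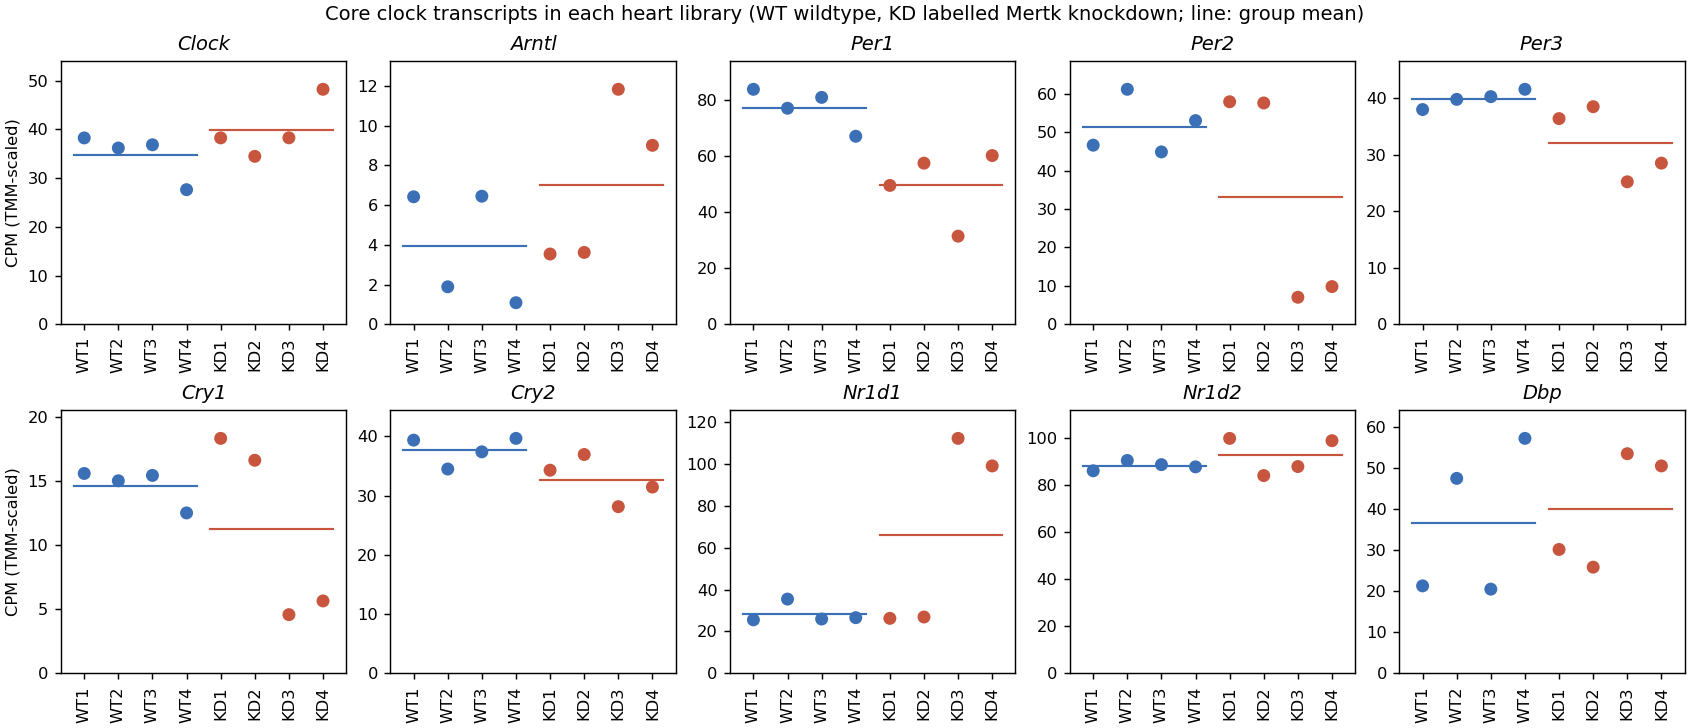
Level of each of the 10 core clock genes in CPM (y axis from 0) in every library (x axis), with wildtype libraries in blue, labelled Mertk knockdown libraries in red and the group mean as a line. In the labelled group Nr1d1, Per2 and Cry1 split into replicates 1 and 2, which sit near the wildtype values, and replicates 3 and 4; in wildtype Arntl and Dbp split replicates 1 and 3 from replicates 2 and 4.

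Of the activating pair, Clock (ENSMUSG00000029238, chromosome 5, 76209868 to 76304792, mm10, minus strand) encodes the DNA-binding partner of BMAL1. Clock was at 38.2, 36.2, 36.8 and 27.6 CPM in wildtype replicates 1 to 4 and at 38.2, 34.5, 38.3 and 48.2 CPM in the labelled knockdown replicates. Wildtype replicate 4 was the lowest and labelled knockdown replicate 4 the highest, and the other 6 lay close together. The log2 fold change was 0.20 (95% interval −0.10 to 0.49, SE 0.13, adjusted p by edgeR = 0.603).

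Arntl (ENSMUSG00000055116, chromosome 7, 113207465 to 113314126, plus strand), which encodes BMAL1, was the least abundant member and among the most variable. Its levels were 6.42, 1.89, 6.45 and 1.09 CPM in the wildtype libraries and 3.54, 3.62, 11.8 and 9.01 CPM in the labelled group. Wildtype replicates 1 and 3 were well above replicates 2 and 4, labelled knockdown replicates 3 and 4 exceeded all other libraries, and the groups overlapped. The fold range was 5.94 within wildtype and 3.34 within the labelled group. The group difference was 0.83 on the log2 scale (95% interval −0.70 to 2.35, SE 0.66, adjusted p by edgeR = 0.679). Within the 5 libraries with hepatocyte transcripts, which hold 1 wildtype library, so that this library is assumed to vary like the labelled ones, the difference was 0.13, and with the hepatocyte marker score as a covariate −0.21.

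Of the Period genes, which encode the repressors of the loop, Per1 (ENSMUSG00000020893, chromosome 11, 69095217 to 69109960, plus strand) was the only member whose groups did not overlap. Per1 was at 83.7, 76.9, 80.8 and 67.0 CPM in the wildtype libraries and at 49.5, 57.4, 31.4 and 60.1 CPM in the labelled libraries. Every labelled library was below every wildtype library, with labelled knockdown replicate 3 the lowest; over all tested genes 8.07% did not overlap (3.90% lower and 4.18% higher), so 1 member in 10 is near that background. Mean levels were 77.1 ± 7.3 and 49.59 ± 12.94 CPM (SD, n = 4 each). Between the groups the log2 fold change was −0.64 (95% interval −1.04 to −0.23, SE 0.18, adjusted p by edgeR = 0.186). By two-sided exact permutation of the libraries' log2 CPM, p was 0.0286, the smallest that 4 libraries against 4 allow. DESeq2 called it (adjusted p = 0.0301), and over the 20 alternatives its adjusted p ran from 0.0301 to 0.561 with a negative fold change in each. Without labelled knockdown replicates 3 and 4 the value was −0.53, and within the 5 libraries with hepatocyte transcripts −0.75.

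Per2 (ENSMUSG00000055866, chromosome 1, 91415982 to 91459324, minus strand), whose transcript peaks after that of Per1, had the widest fold range of the members within a group. It was at 46.6, 61.2, 44.9 and 53.0 CPM in the wildtype libraries and at 57.9, 57.6, 7.05 and 9.83 CPM in the labelled group. Labelled knockdown replicates 1 and 2 lay among the wildtype values, whereas replicates 3 and 4 were far below all other libraries, a fold range of 8.21 within the group against 1.36 within wildtype. Over all 8 libraries its fold range was 8.67, second to the 10.9 of Arntl. On the log2 scale the group difference was −0.64 with an SE of 0.70 (95% interval −2.27 to 1, adjusted p by edgeR = 0.787), and it was 0.17 without labelled knockdown replicates 3 and 4.

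Per3 (ENSMUSG00000028957, chromosome 4, 151003652 to 151044665, minus strand), whose promoter window holds the D-boxes shown above, was at 37.97, 39.8, 40.3 and 41.6 CPM in the wildtype libraries and at 36.4, 38.5, 25.2 and 28.5 CPM in the labelled libraries. Labelled knockdown replicate 2 was within the wildtype range, replicate 1 was just below it and replicates 3 and 4 were lower still. Labelled minus wildtype, the log2 fold change was −0.31 (95% interval −0.60 to −0.02, SE 0.13, adjusted p by edgeR = 0.369) and −0.09 without replicates 3 and 4 of the labelled group. In the deposited table the whole of Per3 lies within Camta1 on the same strand, at 75.4 to 112.99 CPM, so the assignment of reads between these genes is uncertain.

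Cry1 (ENSMUSG00000020038, chromosome 10, 85131700 to 85185064, minus strand), the repressor of the later part of the cycle, repeated the split of Per2. Cry1 was at 15.6, 15.0, 15.5 and 12.5 CPM in the wildtype libraries and at 18.4, 16.6, 4.59 and 5.66 CPM in the labelled group. Replicates 1 and 2 of the labelled group were above all wildtype libraries and replicates 3 and 4 below all of them. The log2 fold change of −0.37 (95% interval −1.38 to 0.64, SE 0.44, adjusted p by edgeR = 0.800) averages over these opposite deviations, and it was 0.26 without labelled knockdown replicates 3 and 4.

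Its paralog Cry2 (ENSMUSG00000068742, chromosome 2, 92403646 to 92434043, minus strand) varied little. Cry2 was at 39.4, 34.5, 37.4 and 39.7 CPM in the wildtype libraries and at 34.3, 36.9, 28.1 and 31.5 CPM in the labelled group. The lowest values were again those of labelled knockdown replicates 3 and 4, with overlap of the groups. The log2 fold change was −0.21 (95% interval −0.43 to 0.02, SE 0.10, adjusted p by edgeR = 0.450).

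Nr1d1 (ENSMUSG00000020889, chromosome 11, 98767932 to 98775333, minus strand) encodes REV-ERB alpha, the repressor of Arntl. Its log2 fold change was the largest of the members in the edgeR fit, but that of Per2 was larger in size by limma on log2(FPKM + 0.1) (−1.16 against 0.93) and on log2(FPKM + 1) (−0.89 against 0.88). Its level was 25.6, 35.5, 26.0 and 26.6 CPM in the wildtype libraries and 26.3, 26.9, 112.1 and 98.9 CPM in the labelled group. Labelled knockdown replicates 1 and 2 lay among the wildtype values, while replicates 3 and 4 were well above every other library. Between the groups the log2 fold change was 1.22 (95% interval 0.01 to 2.43, SE 0.52, adjusted p by edgeR = 0.399), and without labelled knockdown replicates 3 and 4 it was −0.10. The hepatocyte sums did not divide the labelled libraries in this way (282.2 and 230.3 CPM in replicates 3 and 4, 279 and 252.7 CPM in replicates 1 and 2). Heart muscle markers summed to 46050 and 44560 CPM in replicates 3 and 4 and to 46650 and 51070 CPM in replicates 1 and 2, with 3 of 8 markers higher and 4 of 8 lower in both replicates 3 and 4. Atrial markers summed to 20.48 and 723.1 CPM against 18.11 and 19.57 CPM, and 1 of 6 was higher in both. Fibroblast markers were higher, at 774.6 and 795.5 CPM in replicates 3 and 4 and 636.5 and 515.9 CPM in replicates 1 and 2, with 5 of 6 higher in both and none at 0. Of 7 skeletal muscle markers, Acta1, which the loaded heart also expresses, made up nearly all of the sum and was lower in replicates 3 and 4 (1473.89 and 1473.01 CPM) than in replicates 1 and 2 (2750.99 and 2130.94 CPM), while Myh1, Myh2, Myh4, Actn3 and Tnnt3 were at or near 0. The part of these genes or cells in the levels of Nr1d1, Per2, Cry1 and Arntl was not tested. Within the 5 libraries with hepatocyte transcripts the log2 difference of Nr1d1 was 1.38. Thra, a thyroid hormone receptor gene on the opposite strand whose 3′ end overlaps Nr1d1 in GENCODE M21 though not in the deposited table, was at 42.7 to 58.99 CPM in the wildtype libraries and at 39.9, 48.0, 74.7 and 70.4 CPM in the labelled libraries; the strand setting of the counting was not given in the sources used here, and sharing of reads was not tested.

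Nr1d2 (ENSMUSG00000021775, chromosome 14, 18204054 to 18239127, minus strand), which encodes REV-ERB beta, was the steadiest member. Nr1d2 was at 86.3, 90.6, 88.9 and 87.9 CPM in the wildtype libraries and at 100.04, 84.2, 88.1 and 99.1 CPM in the labelled group. It did not follow the split of Nr1d1: labelled knockdown replicates 1 and 4 were its highest libraries. On the log2 scale the group difference was 0.07 (95% interval −0.12 to 0.26, SE 0.09, adjusted p by edgeR = 0.810).

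Dbp (ENSMUSG00000059824, chromosome 7, 45705088 to 45710203, plus strand), the output factor that binds D-boxes, was at 21.3, 47.5, 20.5 and 57.2 CPM in the wildtype libraries and at 30.2, 25.9, 53.5 and 50.5 CPM in the labelled group. High values were those of wildtype replicates 2 and 4 and labelled knockdown replicates 3 and 4, so both groups held a high and a low pair of libraries. Labelled minus wildtype, the log2 fold change was 0.13 (95% interval −0.82 to 1.07, SE 0.41, adjusted p by edgeR = 0.940), and its sign changed with the library left out (−0.07 to 0.43). It was 0.92 within the 5 libraries with hepatocyte transcripts and −0.39 without labelled knockdown replicates 3 and 4. Sphk2, on the opposite strand, overlaps Dbp by 737 bases in the deposited table and was at 14.8 to 23.3 CPM. In wildtype the libraries with high Dbp and low Arntl also had more macrophage, fibroblast and erythroid transcripts. Macrophage markers summed to 139 and 146.3 CPM in replicates 2 and 4 against 94.35 and 100.6 CPM in replicates 1 and 3, with 6 of 6 markers higher in both and none at 0, and fibroblast markers to 1257 and 840.5 against 544.5 and 508.1 CPM (5 of 6, none at 0). Of the muscle genes, Acta1 was at 2522.14 and 2174.98 CPM against 841.82 and 1028.35 CPM, and Actc1 at 7331.7 and 6971.12 against 3258.24 and 3697.97 CPM; 2 of 8 heart muscle markers were higher and 2 of 8 lower in both replicates. Hepatocyte markers were lower there in 8 of 12, but by sum only replicate 1 stood apart. Their sums were 51.57 and 51.87 CPM in replicates 2 and 4, 279.7 CPM in replicate 1 and 56.66 CPM in replicate 3. Erythroid markers summed to 1028 and 919.4 against 760.3 and 758.3 CPM (5 of 5, none at 0). In the labelled group 2 of 6 macrophage markers and 5 of 6 fibroblast markers were higher in replicates 3 and 4 than in replicates 1 and 2, with sums of 80.93 to 103.2 and of 515.9 to 795.5 CPM, and none of its 5 erythroid markers were (899 to 2094 CPM). The part of these genes or cells in the Dbp and Arntl values was not tested.

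**Figure D2:**
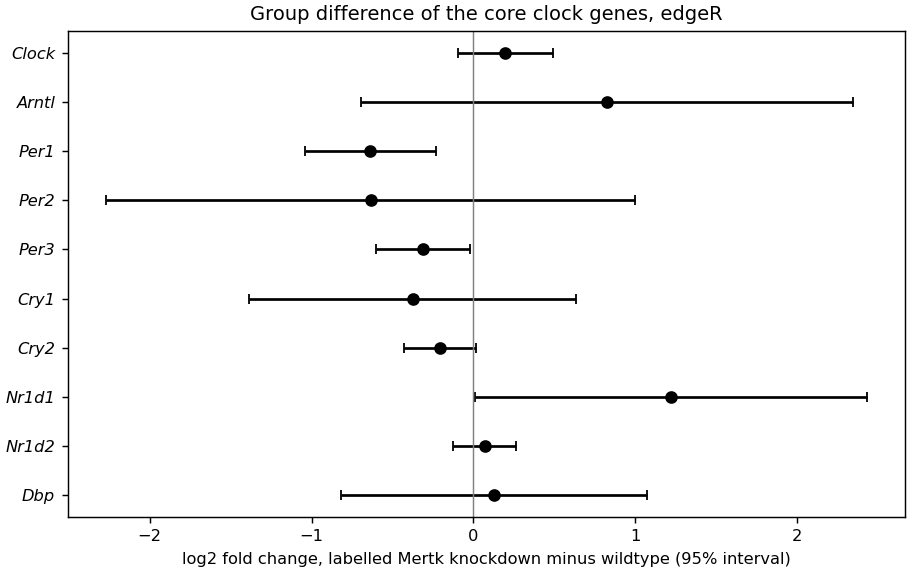
Log2 fold change of each core clock gene, labelled Mertk knockdown minus wildtype (x axis), with its 95% interval from the edgeR fit to 8 libraries. Intervals of Arntl, Per2, Nr1d1, Cry1 and Dbp are wide (Per2, −2.27 to 1), and those of Nr1d2, Cry2 and Clock narrow.

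Ratios of counts within a library do not depend on scaling between libraries, and they show how the members were combined. The ratio of Nr1d1 to Per2 counts was 0.502 to 0.580 in the 4 wildtype libraries, 0.454 and 0.467 in labelled knockdown replicates 1 and 2, and 15.9 and 10.1 in replicates 3 and 4. Nr1d1 to Cry1 gave the same division, at 1.43 to 2.36 in 6 libraries and at 24.4 and 17.5 in labelled knockdown replicates 3 and 4. The ratio of Dbp to Arntl divided the wildtype group instead. It was 3.32 and 3.18 in replicates 1 and 3, 25.2 and 52.6 in replicates 2 and 4, and 4.52 to 8.51 in the labelled group. Wildtype replicates 2 and 4 combined high Dbp with low Arntl, whereas labelled knockdown replicates 3 and 4 combined high Dbp and Nr1d1 with high Arntl and low Per2 and Cry1. Neither division coincided with the labels.

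**Figure D3:**
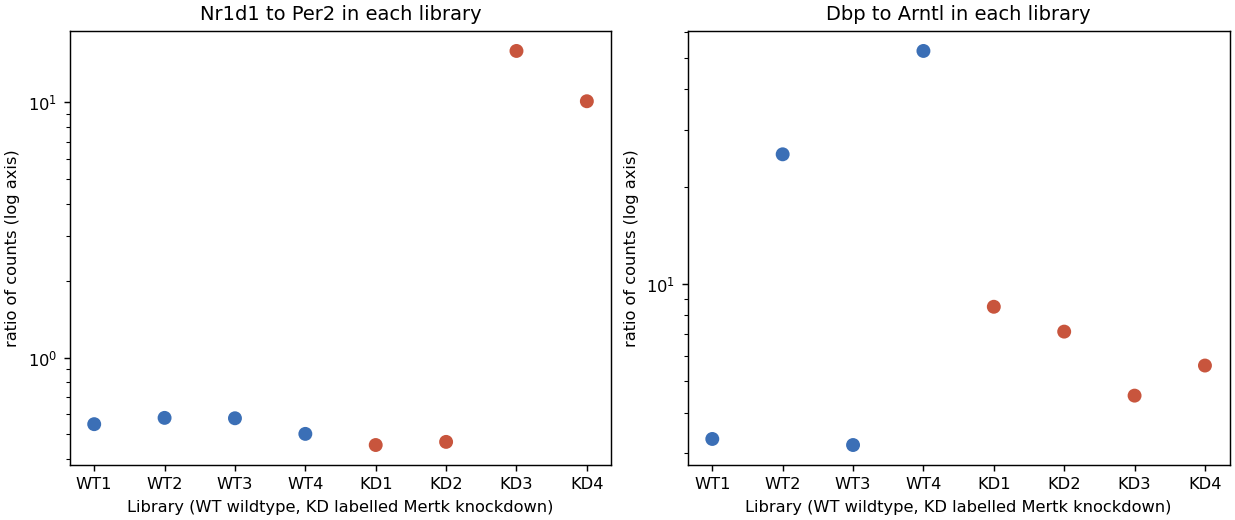
Ratio of counts of Nr1d1 to Per2 (left) and of Dbp to Arntl (right) in each library, on log axes, wildtype in blue and labelled Mertk knockdown in red. The left panel sets labelled knockdown replicates 3 and 4 (15.9 and 10.1) apart from the other 6 libraries, and the right panel sets wildtype replicates 2 and 4 (25.2 and 52.6) above the rest.

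Measured against all tested genes, the spread of these members within a group was uneven. On the log2 scale the SD within the labelled group was 1.58 for Per2, 1.14 for Nr1d1 and 0.98 for Cry1, where the median gene had 0.197; these are larger than in 99.9%, 99.6% and 99.3% of tested genes. The same genes were ordinary in wildtype, with SDs of 0.20, 0.22 and 0.14 against a median of 0.213. Arntl and Dbp were variable in both groups, with SDs of 1.09 and 0.76 in wildtype and 0.83 and 0.52 in the labelled group. Clock, Cry2 and Nr1d2 were near or below the median SD in both. These are descriptions of 4 libraries a group, without a test.

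Per length of transcript, in FPKM as deposited, the order of the levels in wildtype was Nr1d2 (14.8 ± 0.825), Per1 (12.3 ± 0.921), Dbp (11.2 ± 6.09), Nr1d1 (8.35 ± 1.64), Per2 (7.96 ± 1.46), Cry2 (5.38 ± 0.429), Cry1 (3.95 ± 0.317), Per3 (3.75 ± 0.258), Clock (2.27 ± 0.276) and Arntl (0.462 ± 0.325; SD, n = 4 throughout). Within that order, Per1 and Dbp, Dbp and Nr1d1, Nr1d1 and Per2, and Cry1 and Per3 differed by less than their spread. In the labelled group Nr1d1 was first in the order of FPKM (19.9 ± 14.1), ahead of Nr1d2 (15.7 ± 1.29) by less than its spread, and Arntl was last in both (0.858 ± 0.519 in the labelled group).

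Genes of the same loops outside the core were examined as a list of 22 genes, all tested. Of these, 0 were called by edgeR and 0 by DESeq2, and 0 of the 20 with enough FPKM were called by limma. At an unadjusted p under 0.05 by edgeR there were 3, all lower. Of all tested genes 12.4% passed that threshold in either direction and 6.32% were lower. The median log2 fold change was −0.04. The 3 genes with the smallest p were Usp2, Fbxl21 and Noct. Usp2, a deubiquitinase with a rhythmic transcript, was at 73.3 to 107.3 CPM in the wildtype libraries and 55.1 to 77.0 CPM in the labelled group (difference −0.43, SE 0.14, adjusted p by edgeR = 0.237). Noct, which encodes the rhythmic phosphatase nocturnin, was at 38.7 to 54.4 CPM in the wildtype libraries and at 37.0, 43.7, 16.9 and 25.7 CPM in the labelled group (−0.64, SE 0.26, adjusted p by edgeR = 0.364). Fbxl21, an F-box protein that acts on cryptochromes, was at or below 1.25 CPM throughout (−1.54, SE 0.56, adjusted p by edgeR = 0.293). Several other genes of the list, chosen here after their values were seen, showed the division of the labelled group. Nfil3, a repressor that competes with DBP for D-boxes, was at 22.5, 21.5, 8.54 and 7.95 CPM in labelled knockdown replicates 1 to 4 and at 15.3 to 31.3 CPM in wildtype. Npas2, a paralog of Clock, was at 1.51, 1.74, 6.19 and 3.55 CPM there and at 2.02 to 2.76 CPM in wildtype. Cipc, an inhibitor of CLOCK, was at 64.7, 65.1, 32.9 and 39.4 CPM there and at 51.6 to 57.6 CPM in wildtype. By contrast the kinase genes Csnk1d and Csnk1e, which mark PER proteins for turnover, had fold ranges of at most 1.30 within either group. Ciart, a repressor of the loop, followed Dbp in wildtype at 2.84, 5.33, 3.02 and 6.90 CPM, with high values in replicates 2 and 4. In the labelled group it did not follow Dbp, at 5.13, 4.76, 3.56 and 5.09 CPM.

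**Figure D4:**
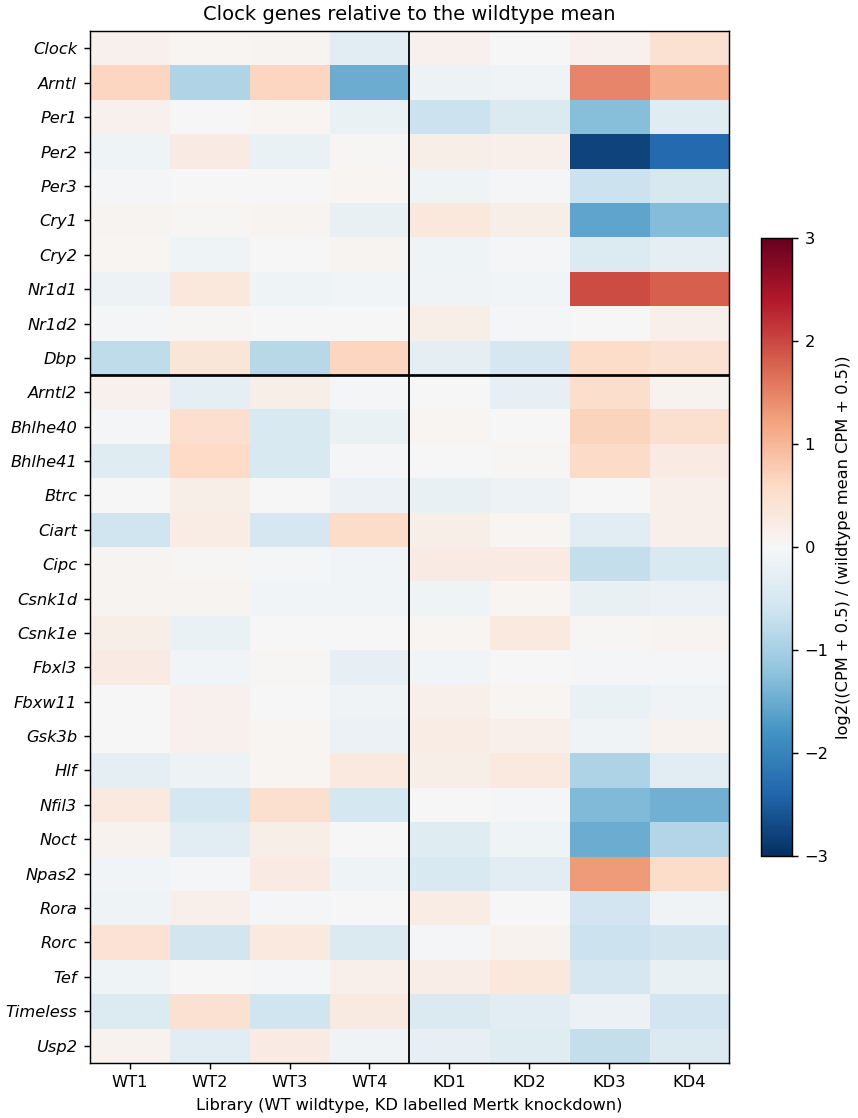
Level of the 10 core clock genes (above the line) and of the other clock genes whose mean reached 1 CPM (below it) in each library, as the log2 of the ratio to the wildtype mean after adding 0.5 CPM, red above and blue below. The columns of labelled knockdown replicates 3 and 4 are the most strongly coloured, with Nr1d1, Arntl and Npas2 red and Per2, Cry1, Nfil3 and Noct blue.

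Genes known as outputs of the clock, in heart or in general, were taken as a list of 15. By edgeR 1 fell and 0 rose, where 0.371% of all tested genes fell and 0.275% rose. The median log2 fold change was −0.02. DESeq2 called 5 (3 lower, 2 higher), where it called 3.73% of all genes. The groups did not overlap in 5 of the 15, against 8.07% of all tested genes: Cdkn1a, Tcap and Pdk4 were lower and Tfrc and Alas1 higher in the labelled group. The gene that fell was Cdkn1a, which encodes the cell cycle inhibitor p21 and is also a p53 target. Cdkn1a was at 47.5, 58.3, 48.4 and 46.6 CPM in the wildtype libraries and at 23.0, 28.7, 20.2 and 17.8 CPM in the labelled group, without overlap (difference −1.16, SE 0.15, adjusted p by edgeR = 0.00962). The call was lost without labelled knockdown replicates 3 and 4 together (−0.96, adjusted p = 0.0625), with the hepatocyte marker score as a covariate (−1.06, adjusted p = 0.220) and within the 5 libraries with hepatocyte transcripts (−1.07, adjusted p = 0.153). Over the 20 alternatives its adjusted p ran from 9.306e-10 (DESeq2) to 0.220. Wee1, a mitotic kinase gene with E-boxes, was at 16.9, 20.2, 7.69 and 7.60 CPM in the labelled libraries and at 15.1 to 22.9 CPM in wildtype. Klf15, a heart metabolic regulator, was at 47.0, 55.9, 21.4 and 27.4 CPM there and at 40.2 to 65.3 CPM in wildtype. Both thus had their lowest values in labelled knockdown replicates 3 and 4. Kcnip2, which encodes a subunit of a repolarizing potassium channel, had its lowest value in wildtype replicate 2, at 116.95 to 137.9 CPM in the labelled libraries and 76.97 to 159.4 CPM in wildtype.

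Glucocorticoids act on Per1 and other clock genes, and 14 genes that respond to these hormones were examined. Some of them are also known to respond to inflammation or metal ions, and Mt1, Mt2 and Lcn2 were known from earlier results of these data. By edgeR 4 fell and 0 rose, where 0.371% of all tested genes fell and 0.275% rose. The median log2 fold change was −0.80. DESeq2 called 6, adding Nfkbia and Tsc22d3, where it called 3.73% of all genes. In 8 of the 14 the groups did not overlap, all lower, where 3.90% of all tested genes were lower without overlap. As genes with known results were on the list, these counts and the median describe the list and not a response to the hormones. The genes called by edgeR were Cebpd, Mt1, Mt2 and Lcn2. Cebpd, a transcription factor of the acute phase, was at 19.91 ± 7.02 CPM in the wildtype libraries and 7.19 ± 1.15 CPM in the labelled libraries (mean ± SD, n = 4 in both, −1.47, SE 0.24, adjusted p by edgeR = 0.0350). The metallothioneins Mt1 and Mt2 had −0.92 (adjusted p by edgeR = 0.0138) and −1.23 (adjusted p by edgeR = 0.0490). Lcn2, an iron-sequestering lipocalin, had −1.28 (adjusted p by edgeR = 0.0330). Over the 20 alternatives Mt1 was called in 15, Lcn2 in 9, Cebpd in 7 and Mt2 in 4. The count of called genes in the list fell to 0 without labelled knockdown replicate 3. It fell to 1 without labelled knockdown replicate 1 or 4 or wildtype replicate 4, and to 2 without labelled knockdown replicate 2 or wildtype replicate 3. Without labelled knockdown replicate 3 the fold changes remained near their size (Mt1 −0.88, Lcn2 −1.26, Cebpd −1.41, Mt2 −1.22). The count was 0 within the 5 libraries with hepatocyte transcripts, where the wildtype group is 1 library; there Mt2 was at −0.58, Mt1 at −0.64, Cebpd at −1.04 and Lcn2 at −1.41. Other genes of the list repeated the division of the labelled group seen in Per2. Fkbp5, a chaperone of the hormone's receptor, was at 47.0 to 71.8 CPM in the wildtype libraries and at 32.1, 38.6, 9.37 and 8.03 CPM in the labelled libraries (−1.40, SE 0.53, adjusted p by edgeR = 0.350). Zbtb16, a transcription factor gene, was at 65.1 to 72.3 CPM in the wildtype libraries and at 109.1, 105.9, 9.95 and 14.2 CPM in the labelled libraries (−0.20, SE 0.78, adjusted p by edgeR = 0.953). Without replicates 3 and 4 it was called in the other direction (0.65, adjusted p = 0.0497), the only call of the list in that fit.

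Transcripts that respond to body temperature, and that also cycle, gave 0 calls in 9 genes by edgeR and 0 by DESeq2 and limma. At an unadjusted p under 0.05 by edgeR there was 1, where 12.4% of all tested genes passed. The median log2 fold change was 0.39. The heat shock genes Hspa1b and Hspa1a had the smallest p. Hspa1b was at 14.7 to 26.7 CPM in the wildtype libraries and at 159.4, 54.8, 15.3 and 52.9 CPM in the labelled libraries (1.74, SE 0.64, adjusted p by edgeR = 0.331), and Hspa1a, a near-identical copy whose reads may be shared with it, had a log2 fold change of 1.49 (edgeR adjusted p = 0.406). Dnajb1, their cochaperone, had 0.39 (edgeR adjusted p = 0.527). Of the 9 genes, 6 heat shock genes were lower and the 2 cold-inducible genes higher in both labelled knockdown replicates 3 and 4 than in both replicates 1 and 2, and Dnajb1 was neither (46.7, 33.5, 19.98 and 39.5 CPM in replicates 1 to 4). Rbm3, a cold-inducible RNA-binding protein gene, was at 30.8, 39.8, 54.04 and 54.03 CPM in the labelled group and at 40.8, 62.8, 45.8 and 63.2 CPM in wildtype, high like Dbp in wildtype replicates 2 and 4. Cirbp, another such gene, was at 15.3, 23.9, 31.8 and 25.8 CPM in the labelled group. In wildtype it was at 24.5, 19.7, 27.2 and 21.0 CPM, lower in replicates 2 and 4, unlike Rbm3 and Dbp. Hspa8, a constitutive chaperone gene, was at 2017, 1795, 1008 and 1094 CPM in the labelled group and at 1279 to 1557 CPM in wildtype. By order alone, 8 of the 9 temperature responsive genes divided the labelled group along the same pairs of libraries as Nr1d1 and Per2. In Hspa1b and Hspa1a, however, replicates 2 and 4 were close (54.8 and 52.9 CPM, and 63.1 and 53.02 CPM). By the chi-square given above, these pairs were also the most alike of the labelled group. Genes of the other lists were divided by these pairs too. Of 15 clock output genes, 3 were higher and 12 lower in both replicates 3 and 4 than in both replicates 1 and 2. The numbers were 4 and 4 of 10 core clock genes, 5 and 11 of 22 other clock genes, and 1 and 8 of 14 glucocorticoid responsive genes. Wildtype was divided by pairs as well. There 7 clock output genes were higher and 5 lower in both replicates 2 and 4 than in both replicates 1 and 3. Core clock genes gave 3 and 4, other clock genes 5 and 6, glucocorticoid responsive genes 4 and 2, and temperature responsive genes 1 and 5. The share over all tested genes was not computed, and the part of temperature in the clock values was not tested.

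**Figure D5:**
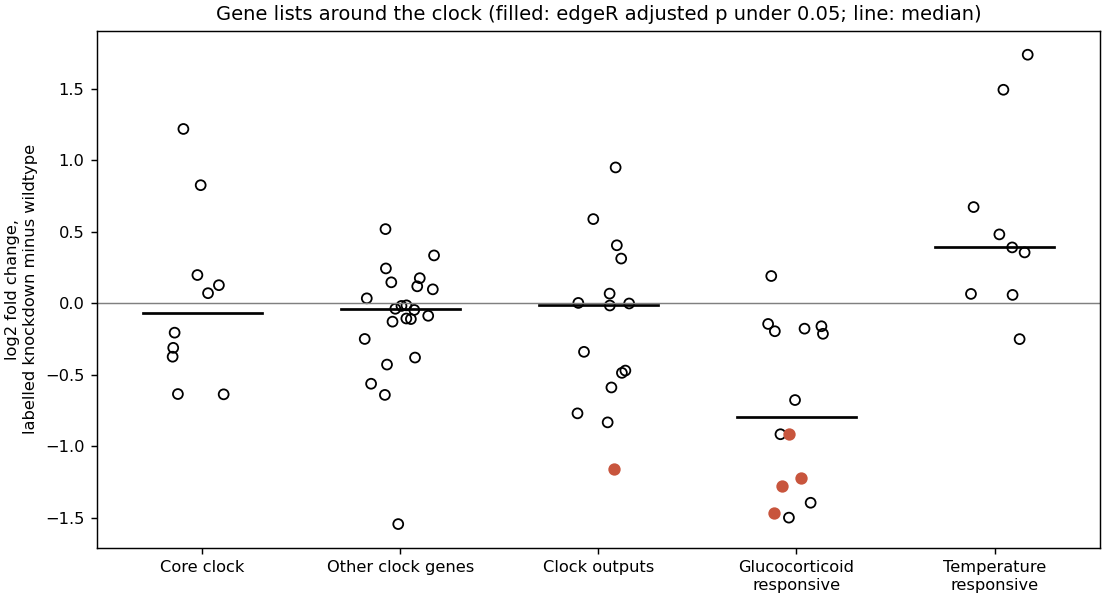
Log2 fold change, labelled Mertk knockdown minus wildtype, of each tested gene of the 5 lists (points; filled where the edgeR adjusted p was under 0.05) with the median as a line. Core clock, other clock and clock output genes have medians near 0 (−0.07, −0.04 and −0.02), and the filled points are Cdkn1a and 4 glucocorticoid responsive genes.

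Across the 8 libraries, the genes most like Dbp and Arntl in log2 CPM were sought among 12313 genes whose mean reached 1 CPM, leaving out predicted and clone names, by Pearson's r and with no test. The libraries share preparation and differ in makeup as given above, and r was chosen as the highest of many. For Dbp these were Nipsnap3b (r = 0.979), Tmsb4x (0.971), Erh (0.971), Mdp1 (0.964) and Camk1 (0.963). Their ranges were narrower than that of Dbp: Tmsb4x, which encodes an actin-sequestering peptide, was at 86.9 to 142.6 CPM. For Arntl they were Meis1 (0.973), Rcl1 (0.972), Kdm8 (0.965), Bahcc1 (0.964) and Rrad (0.951). Rrad, which encodes a small GTPase that restrains the cardiac calcium channel, came nearest to Arntl in range, at 91.0, 52.0, 79.3 and 35.4 CPM in the wildtype libraries and 57.1, 57.7, 199.4 and 136.0 CPM in the labelled group, highest in labelled knockdown replicates 3 and 4 and lowest in wildtype replicates 2 and 4. Meis1, a homeobox gene, was likewise highest and lowest in those libraries, with a smaller range (13.6 to 22.3 CPM).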

How the data were processed

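The authors deposited 1 count and 1 FPKM value (scaled for depth and transcript length) per gene for each of 8 libraries. The submitters' processing notes name build mm10 and, without their roles, StringTie 2.1.6, HISAT2 2.2.1, cutadapt 1.9, edgeR and DESeq2; annotation release and strand setting were not given in the sources used here. Per the labels' protocols, libraries were made from poly(A) RNA with a kit that marks strand. Members were matched by gene name. The members and gene lists were chosen with earlier results of these data known.

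The deposited counts were tested with edgeR 4.0.16 in R 4.3.3 (glmQLFit with robust = TRUE, glmQLFTest, two-sided), with TMM factors, filterByExpr and no covariate, on all 8 libraries, and adjusted by Benjamini-Hochberg over 17787 genes with a threshold of 0.05. SE is the log2 fold change divided by the square root of F. The test was checked on simulated data of 4 libraries against 4. It called 5.36% of the genes changed 1.5-fold, 50.7% of those changed 2-fold and 77.3% of those changed 4-fold. Of its 101 calls 9 were false. A gene that was not called may therefore still differ. The changed genes were picked at random from all genes and the simulated libraries held no pairs alike. These rates therefore need not hold for the members, several of which varied widely within a group.

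The alternatives tried were upper quartile or RLE factors, no filter, DESeq2 1.42.0, limma 3.58.1 on log2(FPKM + 1) or log2(FPKM + 0.1) with a mean FPKM of at least 0.1, no mitochondrial genes, a replicate block, hepatocyte and atrial marker scores as covariates, the libraries with hepatocyte markers over 100 CPM, and leaving out each library. Leaving out labelled knockdown replicates 3 and 4 was added after seeing the data. Named genes were the members, up to 6 called genes of each list or else its 3 with the smallest p, and Mertk (22 genes in all), and for likeness the 5 genes most like Dbp and the 5 most like Arntl. A count of 3 in the shallowest library is 0.0506 CPM, a floor that covers counting error only; the lowest count of a member was 80.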

Additional observations from a re-analysis of the deposited data

Results flagged for a closer look

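Among 22 genes (the members, Mertk and the genes named from the lists by rule) in 2 groups of 4 libraries, 44 sets of values were examined. In 3 of them a library lay far from the other 3 of its group by Dixon's criterion at the 95% level, and each time it was wildtype replicate 2. Chance flags about 1 in 20 groups. Nr1d1 was at 35.45 CPM in wildtype replicate 2, where the other wildtype libraries were at 25.6 to 26.6 CPM. Cdkn1a was at 58.28 CPM in wildtype replicate 2 against 46.6 to 48.4 CPM, and Fbxl21 at 1.252 CPM there against 0.45 to 0.58 CPM. The division of the labelled group into pairs of libraries is not of this kind, since neither pair is a single library.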

How the results depend on the processing

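Over 20 alternatives, the 10 core clock genes gave 200 values, of which 189 kept their direction and their side of the threshold. The exceptions were Per1 with DESeq2, which was called, so that DESeq2 counted 1 core clock gene, and 10 values with the opposite sign. Those were Arntl with the hepatocyte covariate (−0.21), Dbp without wildtype replicate 1 or 3 or labelled knockdown replicate 3 or 4 (range over single libraries left out −0.071 to 0.429), and, without labelled knockdown replicates 3 and 4, Nr1d1 (−0.10), Per2 (0.17), Cry1 (0.26), Arntl (−0.14) and Dbp (−0.39). The last follow from leaving out the libraries that stand apart. For Dbp with 1 library left out, the library was a low one of wildtype (21.3 or 20.5 CPM) or a high one of the labelled group (53.5 or 50.5 CPM). The cause of the sign of Arntl with the hepatocyte covariate was not tested.

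Called clock output genes numbered 5 with DESeq2 and 0 with the hepatocyte covariate, in the libraries with hepatocyte transcripts, and without labelled knockdown replicates 3 and 4. Called glucocorticoid responsive genes numbered 6 with DESeq2, 2 with log2(FPKM + 1) and 2 with log2(FPKM + 0.1). They numbered 1 with the atrial covariate, 0 with the hepatocyte covariate and 0 to 4 with 1 library left out. Without labelled knockdown replicates 3 and 4 the number was 1. That gene was Zbtb16, higher in the labelled group, while Mt1, Mt2, Lcn2 and Cebpd were not called. Of these changes the cause was not tested. Over all genes 115 were called by edgeR, 604 by DESeq2, 68 and 70 by limma on FPKM, 16 with the hepatocyte covariate, 63 with the atrial covariate, 42 in the libraries with hepatocyte transcripts, 38 without labelled knockdown replicates 3 and 4, and 44 to 265 with 1 library left out.

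The replicate numbers gave no clear pairing of the libraries: the correlation of same-numbered deviations was 0.113, −0.112, −0.125 and 0.265. Such correlations cannot show if libraries were handled in pairs. With the replicate block 24 genes were called, among them 0 core clock genes (Per2 −1.20, Nr1d1 0.92), 1 clock output gene and 0 glucocorticoid responsive genes. Labelled knockdown replicates 1 and 4 correlated best with the wildtype library of their own number, and replicates 2 and 3 did not.

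Member counts of 80 or more left little counting error. With 4 libraries a group, the 95% intervals of the log2 fold change stayed wide for Per2 (−2.27 to 1) and Arntl (−0.70 to 2.35).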
